A study of Mus musculus with 10 samples.

Results

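The genes described here encode proteins that tie integrin adhesion sites and the plasma membrane to actin filaments. They are Ptk2, Pxn, Tln1, Vcl, Zyx, Actn1, Actn4, Fscn1, Ezr and Cttn, chosen by name, and all 10 were found among the 53167 gene symbols of the count table. RNA from primary epithelial cells of the mouse mammary gland, of wild-type genotype, was sequenced in 2 groups of 5 libraries. The BGN group had biglycan protein, a secreted proteoglycan of the matrix around cells, in its medium at 100 ng/mL, and the Control group had no added protein. Both groups were grown in DMEM with serum. Neither the duration of stimulation nor the number of animals behind the cultures is given in the sources used here, so the spread between libraries may be technical. The study asked about epithelial migration and WNT signalling, and these genes carry the mechanical side of migration.

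Integrins bind the matrix outside the cell and, through talin, pull on actin inside it. Talin opens the integrin and recruits vinculin under tension, while focal adhesion kinase and the scaffold paxillin assemble the signalling layer of the same site. Zyxin and the alpha-actinins sit where actin bundles meet the adhesion, fascin packs filaments into filopodia, ezrin fixes the cortex to the apical membrane of epithelial cells, and cortactin stabilises branched actin at the leading edge.

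Library totals ran from 18292624 to 21820560 counted reads, and every member had between 1214 and 23150 reads in each library. In all libraries the mammary epithelial markers were abundant when summed, though single markers differed widely. The summed level of 14 luminal markers ran from 5133 to 5557 CPM in BGN libraries and from 5452 to 5771 CPM in Control, and that of 12 basal and myoepithelial markers from 6073 to 6496 CPM in BGN libraries and from 6101 to 7355 CPM in Control (CPM, counts scaled to library size with TMM factors). Krt14 was the highest basal marker, at 3528 ± 88.1 CPM in BGN libraries and 3745 ± 358 CPM in Control. Epcam had the highest mean of the luminal markers, at 1119 ± 24.2 and 1136 ± 43.0 CPM in the same order. Csn3 was close, at 1113 ± 47.4 and 1123 ± 231 CPM, with overlapping SDs. The lowest luminal marker, Areg, had 11.7 ± 0.825 and 11.9 ± 2.10 CPM. Contractile markers of the myoepithelial state were scarce, with Acta2 at 26.7 ± 2.52 CPM in BGN libraries and 28.6 ± 3.98 CPM in Control. Myh11 and Cnn1 lay below 1 CPM in both. Fibroblast, pericyte, endothelial, myeloid, adipocyte and lymphocyte markers were also summed, because several of the members are abundant in such cells. The 10 fibroblast markers summed to 1898 to 2451 CPM in BGN libraries and 1417 to 2272 CPM in Control, most of it from Postn (2032 ± 223 CPM in BGN libraries and 1729 ± 326 CPM in Control). Of the other fibroblast markers Pdgfra had 39.5 ± 2.27 and 38.0 ± 6.79 CPM, Col1a1 4.64 ± 0.813 and 4.205 ± 1.08 CPM and Dcn 2.65 ± 0.771 and 2.62 ± 0.475 CPM in the same order, and the remaining 6 averaged below 1 CPM in both groups. The 5 pericyte markers ran from 141 to 164 CPM in BGN libraries and from 139.5 to 172 CPM in Control, nearly all of it from Notch3. The 8 endothelial markers summed to at most 6.23 CPM with Cldn5 at 0, the 8 myeloid markers to at most 4.42 CPM with Adgre1 and Tyrobp at 0, the 5 adipocyte markers to at most 1.40 CPM, and the 7 lymphocyte markers to at most 0.0517 CPM with 6 of them at 0. In bulk RNA, fewer cells of a type and less RNA per cell cannot be told apart.

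Per length of transcript, the members fell into an abundant and a moderate tier. Levels between genes were compared as CPM per kb of exon, with exon lengths from the GENCODE M21 annotation. Ezr stood at 254 ± 4.46 CPM per kb in BGN and 256 ± 6.996 CPM per kb in Control, and Actn4 at 258 ± 8.42 and 252.02 ± 6.79 CPM per kb in the same order (mean ± SD of 5 libraries, as throughout for group values). Their ranges over the 10 libraries overlapped, so the order of these top members was not resolved. Cttn followed at 116 ± 4.28 CPM per kb in BGN and 118 ± 2.95 CPM per kb in Control, then Actn1 at 93.6 ± 2.21 and 91.8 ± 2.60 CPM per kb. These 4 genes lay above the 95th percentile of the 14078 tested genes with a known length, whose median was 8.15 CPM per kb. The moderate tier held Fscn1 at 31.0 ± 1.49 CPM per kb in BGN and 33.2 ± 1.88 CPM per kb in Control, Pxn at 26.1 ± 0.914 and 26.7 ± 0.933, Tln1 at 25.8 ± 1.12 and 25.1 ± 2.51, Vcl at 22.4 ± 0.418 and 22.2 ± 1.36, Zyx at 16.7 ± 0.963 and 17.7 ± 0.786, and Ptk2 at 13.999 ± 0.505 and 13.94 ± 0.886. Over the 10 libraries the ranges of Pxn and Tln1 overlapped, as did those of Tln1 and Vcl, while each of the other neighbours in the order was apart. Exon length matters to this order, since Tln1, with 8.393 kb of exon, ranked 5 by CPM and 7 per kb among the 10 genes. The position of Vcl is less certain, because 39.7% of its annotated exon bases lie opposite exons of Ap3m1.

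**Figure D1:**
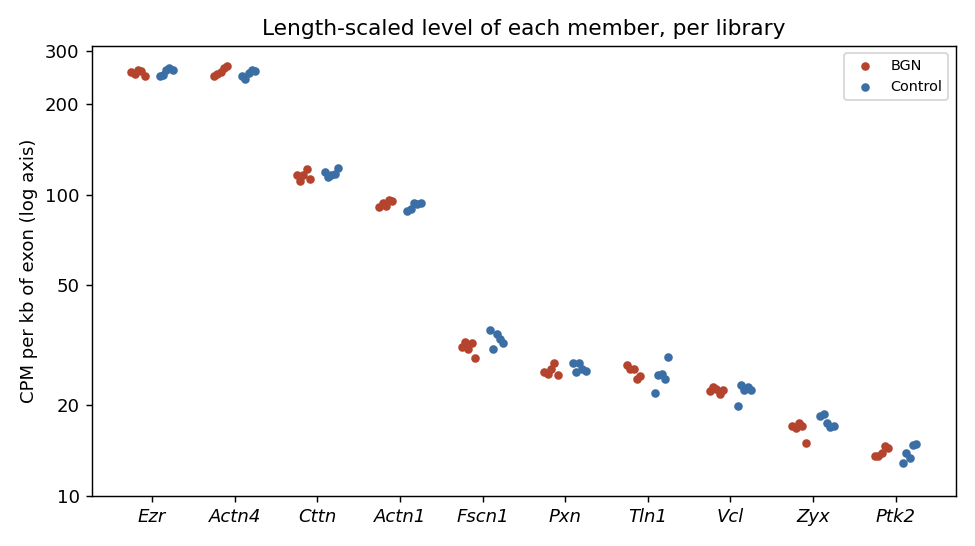
Level of each gene as CPM per kb of exon (log axis), with 1 point per library, BGN left of Control for each gene. Ezr and Actn4 sit together near 255 CPM per kb, and Ptk2 lies lowest at 13.97 CPM per kb over the 10 libraries.

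With biglycan the 10 genes lay close to their Control levels. None passed the test (adjusted p under 0.05 by edgeR's quasi-likelihood test, Benjamini-Hochberg adjusted over 14415 genes), and in the whole comparison 0% of tested genes passed. At an unadjusted p under 0.05 there were 0 members, against 4.81% of all tested genes. DESeq2 and limma-voom with quality weights also called 0 genes after adjustment (662 and 808 of all genes below an unadjusted p of 0.05). Under some alternatives a member fell below an unadjusted p of 0.05: Fscn1 with upper-quartile factors (0.0470), library totals (0.0386) or no filter (0.0435), or without BGN replicate 2 (0.0381), BGN replicate 4 (0.0482), Control replicate 2 (0.0172) or Control replicate 5 (0.0332), and Tln1 without Control replicate 5 (0.0446) or without both replicates 5 (0.0282), all by edgeR. None of these passed after adjustment. Of all tested genes, 706 of 14415 fell below 0.05 with upper-quartile factors, 696 of 14415 with library totals and 1549 of 26531 with no filter. The numbers were 594 of 14550 without BGN replicate 2, 694 of 14542 without BGN replicate 4 and 872 of 14507 without Control replicate 2. They were 738 of 14564 without Control replicate 5 and 865 of 14449 without both replicates 5. Of the 10 genes 5 had estimates above and 5 below 0, where 48% of all tested genes lay above 0, and the median log2 fold change was -0.0025 against -0.0040 over all tested genes. The BGN and Control values overlapped for every member, and the groups did not overlap for 0.728% of all tested genes.

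**Figure D2:**
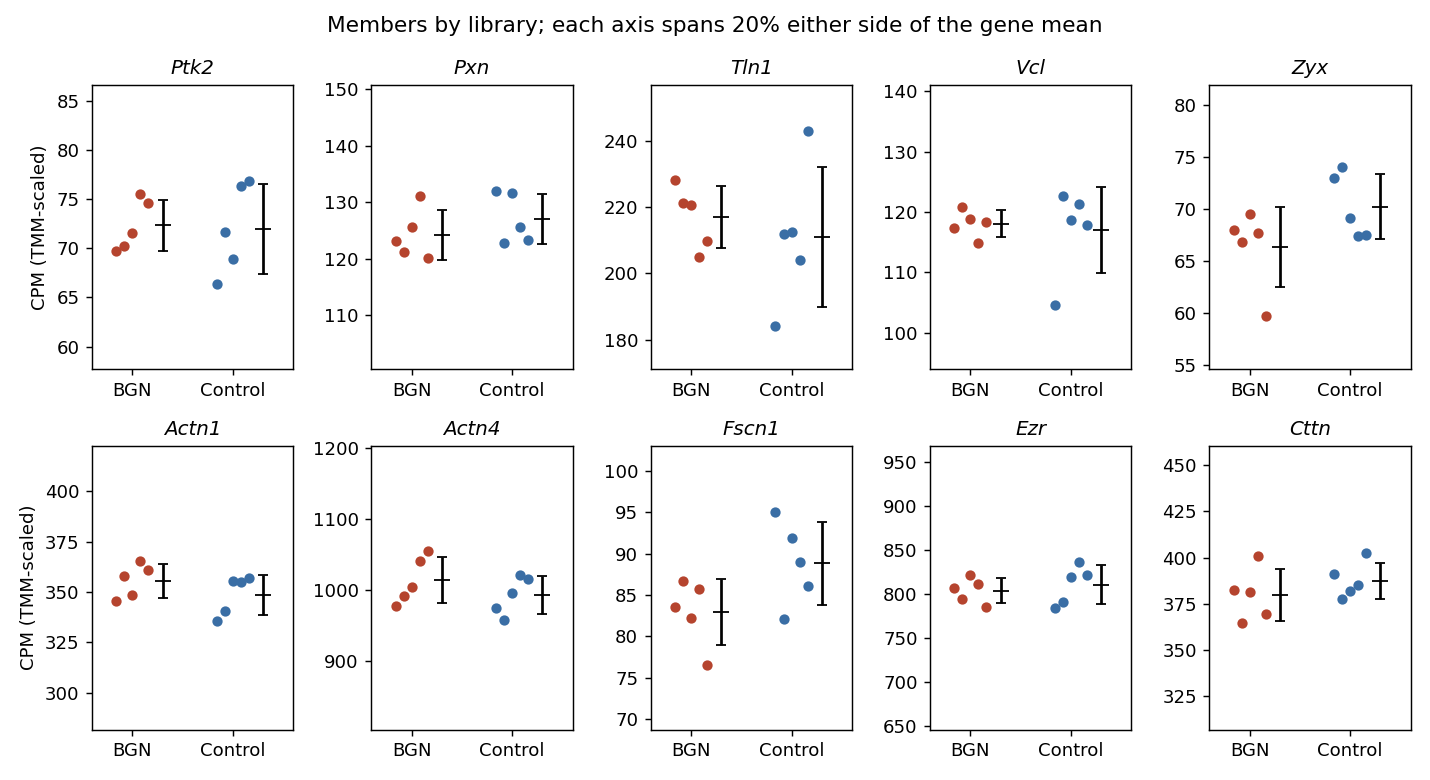
CPM of each gene in each library, BGN left of Control, with mean and SD as bars (n = 5 each); every axis spans 20% either side of the gene's mean. The groups overlap in all 10 panels, and Tln1 in Control has the widest spread.

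Ptk2 and Pxn form the signalling layer. Ptk2, which encodes focal adhesion kinase, had 69.7, 70.2, 71.6, 75.5 and 74.6 CPM in BGN replicates 1 to 5, against 66.3, 71.6, 68.9, 76.3 and 76.8 CPM in Control replicates 1 to 5. The Control libraries held both the lowest and the highest value. The log2 fold change was 0.0066 ± 0.049 (SE), with a 95% interval from -0.094 to 0.11 (adjusted p = 0.994 by edgeR). Pxn, the paxillin gene, had 123, 121, 126, 131 and 120.1 CPM in BGN libraries, against 132, 123, 132, 126 and 123 CPM in Control. BGN replicates 2 and 5 lay below all Control libraries and the other BGN values within their range. Its log2 fold change was -0.033 ± 0.041 (SE), with an interval from -0.12 to 0.052, and ran from -0.051 without BGN replicate 4 to -0.019 without Control replicate 1.

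Tln1 and Vcl encode talin and vinculin, the force-bearing link from integrin to actin. Tln1 had 228, 221, 220.5, 205 and 209.7 CPM in BGN libraries, against 184, 212, 212, 204 and 243 CPM in Control. Control replicate 1 was the lowest and Control replicate 5 the highest of the 10 libraries, and the 5 BGN values lay between them. The log2 fold change was 0.040 ± 0.056 (SE, interval -0.077 to 0.16, adjusted p = 0.977 by edgeR). It was 0.095 without Control replicate 5 (adjusted p = 0.958 by edgeR) and -0.0057 without Control replicate 1 (adjusted p = 1.000 by edgeR). Reads of mitochondrial genes made up 2.14% to 2.26% of the BGN libraries, 1.16% of Control replicate 5 and 1.80% to 2.27% of the other Control libraries. The part of this in the Tln1 value was not tested.

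Vcl had 117, 121, 119, 115 and 118 CPM in BGN libraries, against 105, 123, 119, 121 and 118 CPM in Control. All libraries but Control replicate 1 lay between 115 and 123 CPM. Its log2 fold change was 0.013 ± 0.044 (SE, interval -0.079 to 0.10), and -0.025 without Control replicate 1. Ap3m1, an adaptor complex gene on the opposite strand whose exons overlap those of Vcl, had 91.7 ± 3.07 CPM in BGN libraries and 89.4 ± 7.66 CPM in Control. In Control replicate 1 Ap3m1 had 87.8 CPM, while its lowest value, 76.8 CPM, was in Control replicate 5. The strand setting of the counting is not given in the sources used here, so reads in the shared bases cannot be told apart.

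Zyx, Actn1 and Actn4 encode zyxin and the 2 non-muscle alpha-actinins. Zyx had 67.9, 66.8, 69.4, 67.7 and 59.7 CPM in BGN libraries, against 72.9, 74.0, 69.1, 67.3 and 67.5 CPM in Control. BGN replicate 5 was the lowest library, and the remaining BGN values lay close to Control replicates 3 to 5. The log2 fold change was -0.083 ± 0.049 (SE, interval -0.18 to 0.019, adjusted p = 0.945 by edgeR), and -0.045 without BGN replicate 5. Exons of Epha1, an Eph receptor gene, overlap 5.94% of the annotated exon bases of Zyx on the opposite strand. Epha1 was also lowest in BGN replicate 5, at 53.7 CPM, with 58.5 ± 3.13 CPM over the BGN libraries and 60.8 ± 4.29 CPM over the Control libraries, and the part of shared reads in the Zyx value was not tested.

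Actn1 had 346, 358, 349, 365 and 361 CPM in BGN libraries, against 335, 341, 355, 355 and 357 CPM in Control. Actn4 had 977, 991, 1004, 1041 and 1055 CPM in BGN libraries, against 974, 957, 995, 1020.3 and 1015 CPM in Control. For both genes the top 2 values came from BGN replicates 4 and 5 and the bottom 2 from Control replicates 1 and 2, with the rest intermixed. Their log2 fold changes were 0.029 ± 0.037 and 0.031 ± 0.038 (SE), with intervals from -0.048 to 0.11 and from -0.047 to 0.11. The estimate of Actn1 was 0.015 without Control replicate 1, and that of Actn4 was 0.018 without BGN replicate 5 and 0.019 without Control replicate 2.

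Fscn1, Ezr and Cttn serve protrusions and the cortex. Fscn1, the gene of the filament bundler fascin, had 83.6, 86.6, 82.2, 85.8 and 76.6 CPM in BGN libraries, against 95.1, 82.1, 91.9, 89.0 and 86.1 CPM in Control. It had the lowest estimate among the 10 genes, yet Control replicate 2 lay below 4 of the 5 BGN libraries. The log2 fold change was -0.099 ± 0.048 (SE), with an interval from -0.20 to 0.000285, an unadjusted p of 0.0506 and an adjusted p of 0.945 by edgeR. It was -0.069 without BGN replicate 5 and -0.13 without Control replicate 2.

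Ezr, the ezrin gene, had 807, 795, 821, 812 and 786 CPM in BGN libraries, against 784, 791, 819, 837 and 821 CPM in Control. Cttn, the cortactin gene, had 382, 365, 381, 401 and 369.6 CPM in BGN libraries, against 391, 377, 382, 385 and 403 CPM in Control. Both genes had similar ranges in the groups. The log2 fold changes were -0.012 ± 0.036 for Ezr and -0.029 ± 0.038 for Cttn (SE), with intervals from -0.087 to 0.064 and from -0.11 to 0.050. Without 1 library the estimate of Ezr ran from -0.024 (without Control replicate 1) to -0.00020 (without Control replicate 4), and that of Cttn from -0.048 (without BGN replicate 4) to -0.014 (without BGN replicate 2).

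The 10 intervals were narrow. None reached beyond a 1.15-fold difference in either direction, the widest being that of Fscn1, and that of Ezr stayed within 1.062-fold. Of all tested genes 45.5% had an interval within the same 1.15-fold bound, as did 86.8% of the 4707 tested genes averaging 1000 or more counts, as all 10 members did. Intervals this narrow were thus common among such genes. They do not exclude a difference smaller than these bounds, a change at another time, or one in protein or phosphorylation, which RNA counts do not measure. Each interval is for its own gene and not for the 10 jointly. Since the number of animals is not given, the intervals may reflect technical spread only.

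**Figure D3:**
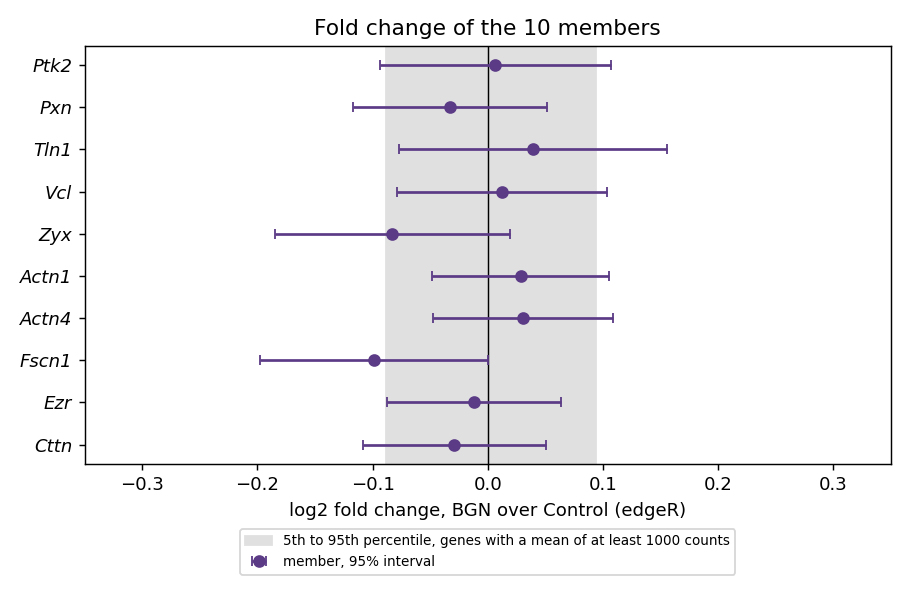
Log2 fold change of each gene, BGN over Control, with its 95% interval from edgeR; the grey band runs from the 5th to the 95th percentile of the estimates of genes averaging 1000 or more counts (-0.088 to 0.095). The interval of every gene includes 0, and the estimate of Fscn1, -0.099, lies just outside the band.

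How steady a gene was between libraries differed among the members. The coefficient of variation of CPM over the 10 libraries was 2.21% for Ezr, 2.67% for Actn1, 3.05% for Actn4, 3.15% for Cttn and 3.51% for Pxn. It reached 7.34% for Tln1, 6.14% for Fscn1 and 5.68% for Zyx, with Vcl at 4.28% and Ptk2 at 4.87%, against a median of 5.06% for genes averaging 1000 or more counts. Among those genes Ezr lay at the 1.68th, Actn1 at the 4.25th and Tln1 at the 83.7th percentile of the coefficient. The genes compared were not matched on counts, and Ezr and Actn1 averaged 15858 and 6921 reads per library, against 4204 for Tln1. The part of counting error in the percentiles was not tested. The highest library of Tln1 exceeded the lowest 1.32-fold, and for Ezr this ratio was 1.07.

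The members did not move as a block from library to library. Actn1 and Actn4 went together over the 10 libraries (Pearson r = 0.83, permutation p = 0.0028, Spearman rho = 0.79, permutation p = 0.0085), and r was 0.76 without the 2 libraries farthest from the median of Actn1. Zyx ran against Actn4 (r = -0.82, permutation p = 0.0031, rho = -0.71, permutation p = 0.026), with r = -0.52 without the 2 libraries farthest from the median of Zyx. Zyx also ran against Actn1 (r = -0.73, permutation p = 0.016, rho = -0.77, permutation p = 0.012; r = -0.80 without 2 libraries). Pxn and Fscn1 went together (r = 0.75, permutation p = 0.012, rho = 0.72, permutation p = 0.023; r = 0.45 without 2 libraries), as did Ptk2 and Actn4 (r = 0.70, permutation p = 0.024, rho = 0.66, permutation p = 0.044; r = 0.71 without 2 libraries). None of the 45 pairs passed after Benjamini-Hochberg adjustment (smallest adjusted permutation p = 0.0693 for Pearson and 0.277 for Spearman). An r of at least 0.7 in size was seen in 5 of 45 pairs, or 11.1%, against 8.16% of all pairs among genes averaging 1000 or more counts. Values of 1 library share its scaling and its RNA, and these pairs were picked for their r, so the correlations are descriptions. With the group means removed, r was 0.81 for Actn1 and Actn4 and -0.79 for Zyx and Actn4.

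**Figure D4:**
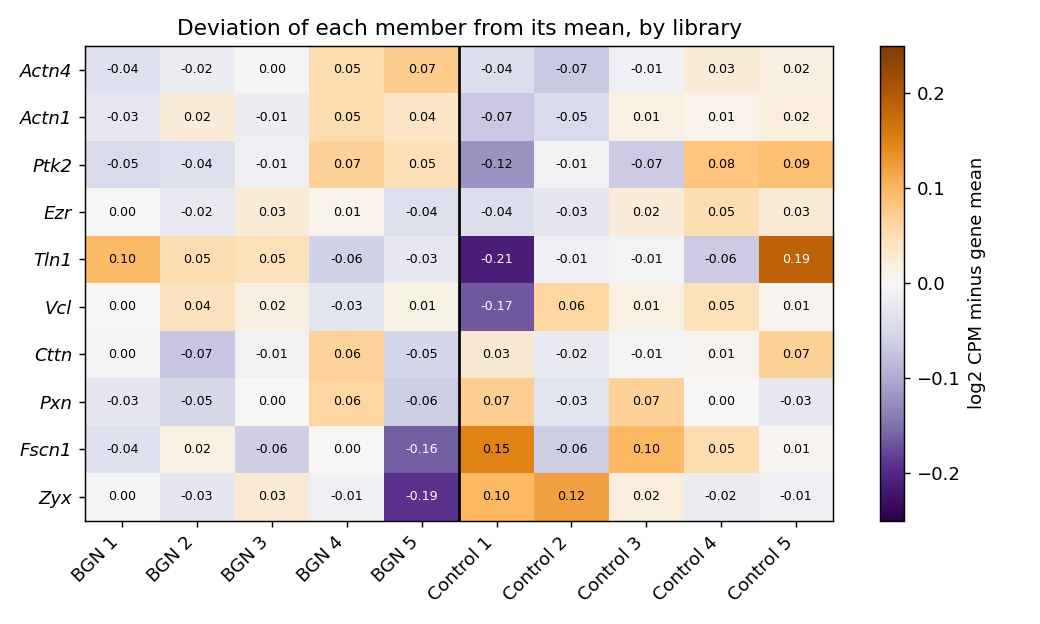
Log2 CPM of each gene minus its mean over the 10 libraries, BGN libraries left of the line and Control libraries right. BGN replicate 5 is low for Zyx (-0.19) and Fscn1 (-0.16), while Control replicate 1 is low for Tln1 (-0.21) and Vcl (-0.17) and high for Fscn1 (0.15).

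The upstream sequences are shown for Actn1, Actn4 and Zyx, which went together or apart, for Fscn1, which went with Pxn, and for Vcl, which held a rarer motif. RefSeq promoter windows (build GRCm38.p6, which is not the build GRCm39 named for the counts) were at hand for 7 of the 10 genes. The 250 bases before the annotated start are given 5′ to 3′ for 5 of them, with motif matches in capitals.
Vcl (chr14:20929148-20929397, plus strand): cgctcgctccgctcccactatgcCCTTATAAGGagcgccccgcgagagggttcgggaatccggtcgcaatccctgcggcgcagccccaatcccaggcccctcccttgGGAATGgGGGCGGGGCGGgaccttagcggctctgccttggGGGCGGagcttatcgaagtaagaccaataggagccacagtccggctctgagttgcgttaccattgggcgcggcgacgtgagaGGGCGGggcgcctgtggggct
Zyx (chr6:42349578-42349827, plus strand): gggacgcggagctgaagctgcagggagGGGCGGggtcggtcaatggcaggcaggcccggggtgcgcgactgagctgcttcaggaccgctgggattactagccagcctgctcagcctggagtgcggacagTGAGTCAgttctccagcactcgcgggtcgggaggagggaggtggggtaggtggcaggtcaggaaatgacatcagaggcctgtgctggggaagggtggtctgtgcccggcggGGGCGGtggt
Actn1 (chr12:80260364-80260613, minus strand): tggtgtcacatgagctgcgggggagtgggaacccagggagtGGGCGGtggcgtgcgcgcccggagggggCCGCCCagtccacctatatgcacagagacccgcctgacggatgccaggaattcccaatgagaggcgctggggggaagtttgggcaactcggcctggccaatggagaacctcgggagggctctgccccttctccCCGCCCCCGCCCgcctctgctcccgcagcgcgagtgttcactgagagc
Actn4 (chr7:28962333-28962582, minus strand): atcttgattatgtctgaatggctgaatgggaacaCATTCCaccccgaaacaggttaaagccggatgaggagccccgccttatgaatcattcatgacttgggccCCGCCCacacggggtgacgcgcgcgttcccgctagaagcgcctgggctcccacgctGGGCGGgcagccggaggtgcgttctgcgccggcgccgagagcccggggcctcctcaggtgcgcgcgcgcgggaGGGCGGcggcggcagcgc
Fscn1 (chr5:142960105-142960354, plus strand): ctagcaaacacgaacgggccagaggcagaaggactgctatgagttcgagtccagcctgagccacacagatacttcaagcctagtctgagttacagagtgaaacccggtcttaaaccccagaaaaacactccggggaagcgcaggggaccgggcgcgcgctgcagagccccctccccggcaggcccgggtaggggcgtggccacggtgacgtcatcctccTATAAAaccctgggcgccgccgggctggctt
Both strands of the 250 bases were searched for the CArG box, the letter pattern bound by serum response factor, and for GGGCGG (a GC box), GGAATG (a TEAD core), TGACTCA (an AP-1 site) and TATAAA. Overlapping matches were each counted, and 1 pair was found, of GC boxes in Vcl. The CArG box was found in Vcl alone of the 7, as CCTTATAAGG from 227 to 218 bases before the start, and in 1.47% of 32851 windows. GGGCGG was in 5 of 7 (Vcl, Zyx, Actn1, Actn4 and Ezr) and in 32.7% of all windows. GGAATG was in Vcl and Actn4, and in 12.6% of all; TGACTCA was in Zyx and Ezr, and in 4.46% of all; TATAAA was in Fscn1, and in 12.4% of all. Vcl and Actn1 had 4 GC boxes each, Actn4 had 3, Zyx and Ezr had 2 each, and Fscn1 and Tln1 had none. A link between these counts and the correlations was not tested. All 7 windows held more G and C than the median of 52.4%, from 55.6% in Tln1 to 68.4% in Actn1. The value of Tln1 lay at the 60.1th percentile of all windows. The windows compared were not matched on G and C, and the part of base content in the GGGCGG matches was not tested. A match describes the letters and does not show binding.

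Most of the members have close relatives in the genome, and the share of each within its family was set against the same share in Control. Shares were taken from counts per exon length within a library, so they do not depend on the scaling between libraries. Among the alpha-actinins, Actn1 made up 26.8%, 27.2%, 26.4%, 26.7% and 26.2% in BGN, against 26.3%, 26.9%, 27.0%, 26.5% and 26.7% in Control. Actn4 supplied nearly all the rest, since the muscle gene Actn2 had 0 reads in all 10 libraries (a count of 0 allows up to 3) and Actn3 had 40 reads in total. The mean difference was -0.024 percentage points (exact permutation p = 0.913, two-sided).

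Tln1 gave the smallest p among the family shares. It made up 70.0%, 70.4%, 68.0%, 69.3% and 69.6% of talin counts per length in BGN, against 66.1%, 68.3%, 68.5%, 68.9% and 68.4% in Control. Of the BGN libraries, 4 lay above all Control libraries, and BGN replicate 3 lay below 4 of them. The difference of 1.41 percentage points had an exact permutation p of 0.0476 (two-sided), or 0.381 adjusted over the 8 families, and did not pass. It was 0.930 percentage points without Control replicate 1. Tln2, the second talin, measured 142 ± 8.11 CPM in BGN libraries and 147 ± 11.6 CPM in Control libraries (log2 fold change -0.052).

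In the other families the groups overlapped too. Ezr supplied 56.1 ± 0.540% of the ezrin, radixin and moesin family in BGN and 56.6 ± 1.29% in Control, with Msn at 513 ± 11.99 and 509 ± 35.05 CPM and Rdx at 303 ± 8.89 and 298 ± 13.6 CPM in the same order. The difference of -0.48 percentage points turned to 0.0625 without Control replicate 5, whose share of 58.8% was the highest. Zyx supplied 27.8 ± 1.01% of its family in BGN and 29.0 ± 1.94% in Control. That family was taken as Zyx and the LIM domain genes Trip6 and Lpp alone, without Limd1 and Ajuba. Over the 10 libraries Trip6 averaged 28.8 ± 2.57, Zyx 17.2 ± 0.976 and Lpp 14.5 ± 1.61 CPM per kb (SD), so Zyx was intermediate by mean level per length. Without length scaling, where the long transcript of Lpp weighs more, the Zyx share difference was -1.80 percentage points in place of -1.18 (exact permutation p = 0.0476, adjusted 0.190, in place of 0.286 and 0.508). It was -1.89 without Control replicate 5 and -0.564 without Control replicate 2. Trip6 had 60.9 ± 2.62 CPM in BGN libraries and 64.0 ± 7.54 CPM in Control, and Lpp 240.3 ± 29.3 and 219 ± 17.7 CPM. Ptk2 held 70.6 ± 1.36% in BGN and 69.4 ± 2.03% in Control against its relative Ptk2b, which encodes the kinase PYK2, and the difference of 1.199 percentage points was 0.498 without Control replicate 3, 0.748 without BGN replicate 5 and 1.87 without Control replicate 4. Pxn held 95.4 ± 0.498% and 94.7 ± 0.836% over Tgfb1i1, the gene of the paxillin relative Hic-5, and Lpxn, and the difference of 0.618 percentage points was 0.274 without Control replicate 3. Fscn1 and Cttn were nearly alone, at 99.4 ± 0.329% and 99.7 ± 0.266% for Fscn1 over Fscn2 and Fscn3, while Hcls1, the blood cell relative of Cttn, had 3 reads over all libraries. The exact permutation p of these 6 families lay between 0.167 and 0.595 (two-sided), none passed after adjustment, and the smallest p this design allows is 0.00794.

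**Figure D5:**
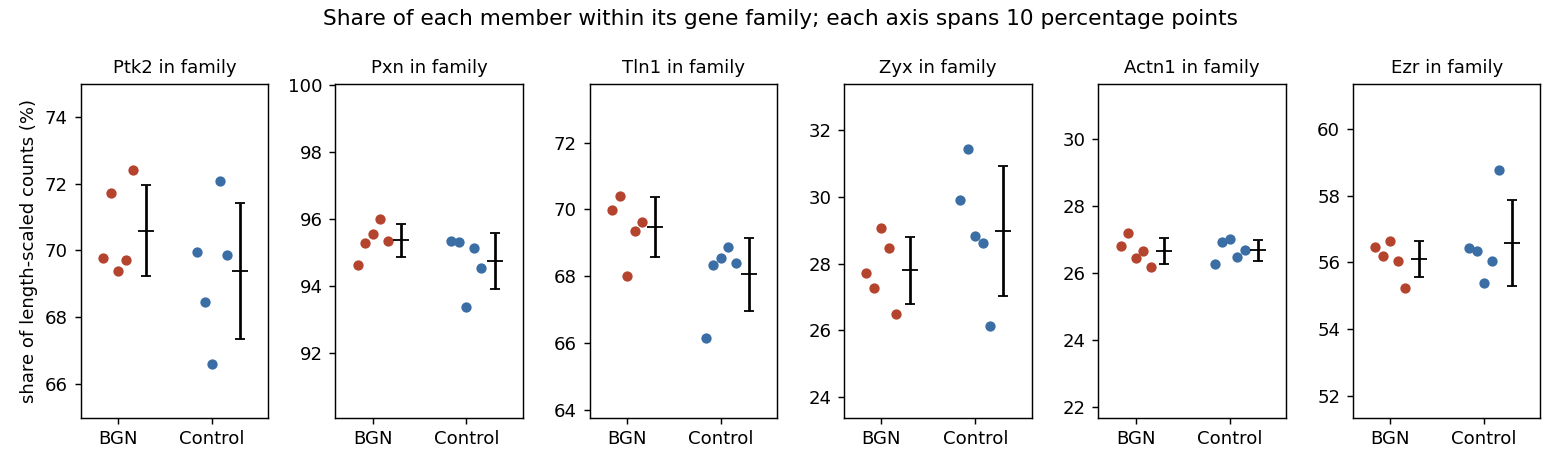
Share of each gene in the length-scaled counts of its family (%), per library, BGN left of Control, with mean and SD (n = 5 each); each axis spans 10 percentage points. The groups overlap in all 6 panels, and for Tln1 4 of 5 BGN libraries lie above the Control libraries.

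Estimates for the surrounding machinery also lay on both sides of 0. Of 109 further adhesion and actin genes in 7 lists 95 were tested, 51 with estimates above and 44 below 0. Over all tested genes 48% lay above 0. The median log2 fold change of the 95 was 0.0027, against -0.0040 over all tested genes. None of the 95 passed in either direction by edgeR, DESeq2 or limma-voom. An unadjusted p under 0.05 by edgeR was seen for 2 of the 95, against 4.81% of all tested genes. The estimates ran from -0.27 to 0.18. Of each list the 2 genes of smallest p are named here, so a small p is no support for them.

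Around talin, 10 of 14 genes of the kindlin and integrin-linked kinase group were tested, 8 above and 2 below 0 (median 0.047). Fermt1, the kindlin of epithelia, had 82.1 ± 6.70 CPM in BGN libraries and 78.4 ± 3.66 CPM in Control, and Lims1, a PINCH adaptor, 227 ± 2.89 and 217 ± 20.2 CPM. Around focal adhesion kinase and Src, 9 of 19 tested genes lay above and 10 below 0 (median -0.0044). Tgfb1i1 had 5.32 ± 0.720 CPM in BGN libraries and 6.27 ± 0.578 CPM in Control libraries (log2 fold change -0.24, interval -0.48 to 0.0064, adjusted p = 0.945 by edgeR), and Pak2, a kinase downstream of Rac, 317 ± 6.48 and 304 ± 8.20 CPM. In the zyxin, VASP and tensin group 6 of 15 lay above and 9 below 0 (median -0.0092), with the tensin gene Tns3 at 439 ± 16.97 and 416 ± 25.3 CPM and Lpp, given above, at a log2 fold change of 0.13.

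Of the other crosslinkers 9 of 14 were tested, 6 above and 3 below 0 (median 0.017), with the spectrin gene Sptbn1 at 347 ± 19.8 CPM in BGN libraries and 331 ± 17.4 CPM in Control and the plastin gene Lcp1 at 11.9 ± 1.31 and 10.98 ± 0.998 CPM. Partners and regulators of ezrin had 8 of 11 above and 3 below 0 (median 0.012), among them the scaffold gene Slc9a3r1 at 138 ± 8.21 and 143 ± 4.79 CPM and the kinase gene Rock2 at 163 ± 9.22 and 158 ± 9.63 CPM. Among cortactin, Arp2/3 and WAVE genes 12 of 21 tested lay above and 9 below 0 (median 0.0062). Wipf2, a partner of the WASP proteins, had 40.0 ± 1.48 CPM in BGN libraries and 36.5 ± 1.901 CPM in Control libraries (log2 fold change 0.13, interval 0.022 to 0.24), and Dbnl, an actin-binding adaptor, had 102 ± 5.10 and 109 ± 5.10 CPM (-0.098, interval -0.19 to -0.0039). Both had an adjusted p of 0.945 by edgeR. Actin and its monomer-binding partners had 2 of 10 above and 8 below 0 (median -0.011), with the cyclase-associated gene Cap1 at 355 ± 12.6 and 373 ± 11.6 CPM and the thymosin gene Tmsb10 at 339.8 ± 6.72 and 356 ± 17.3 CPM.

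The mean deviation of the 10 genes per library ran from -0.036 in BGN replicate 5 to 0.021 in BGN replicate 4, and from -0.030 in Control replicate 1 to 0.038 in Control replicate 5, on the log2 scale. Over the 10 libraries, 5 of 11955 other genes averaging 50 or more counts followed it most closely by Pearson r, which served as a ranking and carries no test. They were Dpyd (r = 0.92), which encodes an enzyme of pyrimidine breakdown, Mapk8ip1 (0.91), a scaffold of the JNK pathway, the zinc finger gene Zscan30 (0.87), Lmf1 (0.87), a maturation factor of lipases, and Man2b1 (0.87), a lysosomal mannosidase. Man2b1 had 83.2 ± 2.81 CPM in BGN libraries and 84.6 ± 3.18 CPM in Control. None is an adhesion gene of the 7 lists.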

How the data were processed

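Poly-A selected RNA of 10 libraries was sequenced, per the labels' protocols. The deposited table holds raw counts, whole numbers of reads for each gene symbol in each sample. The submitters' processing notes list FastQC, cutadapt (version 1.9.1), HISAT2 (version 2.2.1), HTSeq, DESeq2 and the build GRCm39. The annotation release and strand setting were not stated in any source used. Titles gave each sample's group and replicate number, and descriptions matched columns to samples.

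After filterByExpr 14415 genes remained. The model, with treatment as its only term, used TMM factors and edgeR's quasi-likelihood test (version 4.0.16, robust, in R 4.3.3). Log2 fold changes put BGN over Control, and each SE follows from that change and its F value. Exon lengths are unions of GENCODE M21 basic exons (GRCm38), known for 97.7% of tested genes. Family shares were set against each other with an exact permutation test, all assignments enumerated. Correlations were taken on log2 CPM (prior count 2) with 100000 permutations. No libraries were near-copies, since the chi-square per degree of freedom of every pair was at least 2.43. It ran from 11.5 to 20.8 for pairs with Control replicate 5 and from 4.82 to 20.8 for pairs with BGN replicate 5. Pairs without these libraries reached at most 9.36. The part of this difference in the values of the members was not tested. The fitting steps were tested on simulated data, with changes set in genes averaging 50 or more counts. The edgeR fit called 74% of 50 genes changed 1.25-fold and 94% of 50 changed 1.5-fold. It called 0.0639% of unchanged genes. In the same run 50 genes were changed 2-fold and 50 were changed 3-fold, and such calls ease the adjusted cut for weaker changes. Counts were drawn gene by gene, without shifts shared within a library. The shares called may thus be lower where few genes change, which was not simulated. Changes below 1.25-fold were not simulated. Alternatives were other scalings and filters, DESeq2 1.42.0, limma-voom with quality weights (limma 3.58.1) and a fit without robust estimation. Further ones were a block by replicate number and fits with libraries left out. The members, lists and tests were chosen with earlier results of these data known. Named genes were the members, their family relatives, the 2 genes of smallest p in each of 7 lists and the 5 genes of highest correlation with the members' mean deviation. Cell type markers were named beside their sums. Of the genes whose exons overlap those of a member, only Ap3m1 and Epha1 were named, outside this rule. Epha1 was the one of highest Pearson r with its member (0.66).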

Additional observations from a re-analysis of the deposited data

Results flagged for a closer look

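In 3 groups 1 library lay far from the other 4, by the ratio of its gap to the group's range (over 0.71, Dixon's value for 5 samples). Chance flags about 1 in 20 groups, or 1.8 of the 36 tested here if each could be flagged on its own. That does not fully hold, since the shares reuse the members' counts. The Cttn share, at 100% in every BGN library, had no range. Vcl was at 105 CPM in Control replicate 1. Zyx was at 59.7 CPM in BGN replicate 5. The share of Tln1 among talin counts per length was 66.1% in Control replicate 1.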

How the results depend on the processing

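No member passed under any of the 20 alternatives (smallest adjusted p = 0.734, of both Fscn1 and Zyx with no filter on low counts; edgeR), and of 200 estimates 193 kept their sign. Over all genes, 3 passed with no filter, none of them a member, and 0 under each other alternative, where the smallest adjusted p ran from 0.127 to 1.000. Leaving out 1 library at a time, the log2 fold change ran from -0.022 to 0.031 for Ptk2, from -0.025 to 0.031 for Vcl, from -0.0238 to -0.00020 for Ezr, from -0.0057 to 0.095 for Tln1, from 0.015 to 0.039 for Actn1, from 0.018 to 0.044 for Actn4, from -0.051 to -0.019 for Pxn, from -0.048 to -0.014 for Cttn, from -0.13 to -0.069 for Fscn1 and from -0.10 to -0.045 for Zyx. In the same way the family share difference ran from -0.160 to 0.0985 percentage points for Actn1, from -0.784 to 0.0625 for Ezr, from -1.89 to -0.564 for Zyx, from 0.498 to 1.87 for Ptk2, from 0.274 to 0.801 for Pxn, from 0.930 to 1.77 for Tln1, from -0.360 to -0.150 for Fscn1 and from 0.0054 to 0.0168 for Cttn, and the cause was not tested. Without BGN replicate 5 and Control replicate 5, libraries picked from earlier results, the log2 fold change of Ezr was 0.0026, the share difference was 0.103 percentage points for Actn1 and 0.281 for Ezr, and the log2 fold change of Tln1 was 0.11 (adjusted p = 0.796 by edgeR). Of 104 share differences 97 kept their sign, and none passed (smallest adjusted p = 0.127, exact permutation). With the replicate number as a block 0 genes and 0 members passed, with Tln1 at 0.044 and a Tln1 share difference of 1.41 percentage points. The labels do not say whether same-numbered libraries share more than a number. Of the 5 same-numbered pairs 1 had a correlation of deviations over 0.1, and 3 of 10 libraries correlated best with their own number. So few pairs cannot decide whether the libraries were paired. How far depth, apart from the spread between libraries, sets the widths of the intervals was not tested.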
